A study of Mus musculus with 12 samples.

Results

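The levels of 9 genes that mark the lineage of a sorted kidney or blood sample were followed through every library of the series. They comprised Prom1 and Ptprc, which encode prominin-1 and CD45, the surface proteins used to sort renal tubular epithelial cells (TECs), together with the epithelial and nephron genes Epcam, Cdh16, Pax8 and Pax2 and the myeloid genes Lyz2, Csf1r and Ly6g. They were taken by gene symbol, and all 9 were found among the 50433 gene rows of the TEC table and the 50434 gene rows of the table of blood neutrophils (PMN).

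The series asked what glutamine given after renal ischemia-reperfusion injury (IRI) changes in renal TECs and in blood neutrophils of WT mice. It held 12 libraries in 4 groups of 3, namely TECs or PMN of mice that received glutamine, given into a vein as a dipeptide with alanine, or saline vehicle. All 12 libraries came from mice with clamped renal pedicles, from cells taken 24 hours after IRI, so that no uninjured level of any gene was available. By the study's methods the mice were male C57BL/6J, and its sources give different times after reperfusion for the glutamine dose. For the TEC libraries, the sort of kidney cells kept those with prominin-1 and without CD45 on their surface. How the blood neutrophils were sorted for RNA is not given in the sources used here, nor is it stated for PMN that each library came from a different mouse, so that p-values there measure the spread between libraries.

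Prominin-1 sits on membrane protrusions and in the injured kidney is carried by proximal tubule cells and by scattered tubular cells. CD45 is a phosphatase on the surface of all white blood cells, so that a CD45- gate removes leukocytes and should leave little Ptprc RNA. Pax2 and Pax8 are transcription factors that build the nephron, and Cdh16 encodes a cadherin made mainly in kidney tubules. Lysozyme 2 is a granule enzyme of neutrophils and macrophages, Csf1r is the receptor through which monocytes and macrophages receive their survival signal, and Ly6g is the surface protein by which mouse neutrophils are usually recognized.

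To show how the genes are laid out, the stretches before the transcription start of the leukocyte genes the results turn on are given before their RefSeq starts on GRCm38.p6, each 5′ to 3′ on the gene's own strand. Ptprc was read at chr1:138175306-138175555 on the minus strand, Ly6g at chr15:75155011-75155260 on the plus strand, Lyz2 at chr10:117282323-117282522 and its neighbour Lyz1 at chr10:117292919-117293118, both on the minus strand. For Lyz2 and Lyz1 the 50 bases nearest the start were left out, because GENCODE M21 starts the exon of Lyz2 within them and Lyz1 was treated alike. The Ptprc window lies inside the gene as GENCODE M21 draws it, whose first start is farther upstream, and the Ly6g window runs just past the GENCODE start. Ptprc is shown as the gene of the CD45 gate, Ly6g as the neutrophil gene, and the lysozyme pair because the copies are close in sequence. Capitals mark GAGGAAG, a sequence of the type bound by the myeloid ETS factor Spi1, in Ly6g, and the longest run shared by Lyz2 and Lyz1, which was 14 bases.
Ptprc: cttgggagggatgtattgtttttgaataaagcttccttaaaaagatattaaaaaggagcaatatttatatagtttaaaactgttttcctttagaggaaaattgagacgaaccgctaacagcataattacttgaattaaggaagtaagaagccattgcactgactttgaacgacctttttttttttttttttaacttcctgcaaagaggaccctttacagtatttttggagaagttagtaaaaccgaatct
Ly6g: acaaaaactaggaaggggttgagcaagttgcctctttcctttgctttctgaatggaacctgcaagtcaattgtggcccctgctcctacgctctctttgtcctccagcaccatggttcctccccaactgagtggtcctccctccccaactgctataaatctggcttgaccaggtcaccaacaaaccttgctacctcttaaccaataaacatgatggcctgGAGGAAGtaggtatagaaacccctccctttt
Lyz2: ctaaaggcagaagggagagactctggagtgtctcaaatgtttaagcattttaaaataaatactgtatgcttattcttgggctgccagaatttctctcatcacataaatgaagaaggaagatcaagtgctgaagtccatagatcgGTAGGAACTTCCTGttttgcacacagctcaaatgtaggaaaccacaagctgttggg
Lyz1: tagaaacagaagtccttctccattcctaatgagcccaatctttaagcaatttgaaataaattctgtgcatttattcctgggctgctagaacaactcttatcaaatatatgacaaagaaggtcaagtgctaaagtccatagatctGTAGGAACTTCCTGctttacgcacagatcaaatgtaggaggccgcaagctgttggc
Of the 9 genes 7 had a RefSeq window of 250 bases before the start, some with several starts. GAGGAAG, searched on both strands, lay 31 bases before the start in the Ly6g window shown and was also found before a downstream start of Prom1, and 10.6% of all 32851 windows of this length held it. GTTAAT, the letters of an HNF1 half-site, was in none of the windows of the 7 genes and in 6.43% of all windows. These matches describe letters only.

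Depth and makeup differed between the cell types. TEC libraries held 5397370 to 10223461 counts and PMN libraries 20225254 to 21878452, and a gene with 0 counts could still be present at up to 0.556 CPM (counts scaled to a common library total) in the shallowest TEC library and 0.148 CPM in the shallowest PMN library (3 counts, counting error only). CPM values below were scaled with edgeR's TMM factors within each table. In TECs the makeup also differed between the treatment groups without overlap. The top 50 genes held 38.46% to 39.38% of counts with glutamine and 30.95% to 33.83% with vehicle. TMM factors were 0.9255 to 0.9642 with glutamine and 0.9891 to 1.099 with vehicle. In PMN, 1750 of 10726 genes (16.3%) reached at least 10 CPM in 1 library and were at least 10 times lower in every other, against 5 of 9987 genes (0.0501%) in TECs. PMN vehicle replicates 1 and 2 stood apart by kidney genes, as described for each below, and the differences of the 6 marker genes fitted in PMN are given with and without them.

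In renal TECs the 4 strongly expressed tubular markers were present in all 6 libraries. Prom1 had 64.6, 70.1 and 76.5 CPM in vehicle replicates 3, 4 and 5 and 83.5, 82.2 and 75.0 CPM in glutamine replicates 1, 2 and 3. Cdh16 had 311, 226 and 394 CPM with vehicle and 325, 417 and 340 CPM with glutamine in the same order. The groups overlapped for both genes, and the sort marker itself varied less between libraries than the cadherin. Epcam, an adhesion molecule of epithelia, had 63.5, 77.5 and 44.3 CPM with vehicle and 112, 93.4 and 56.5 CPM with glutamine, again with overlap. Pax8 had 104, 88.9 and 98.1 CPM with vehicle and 55.6, 67.5 and 77.0 CPM with glutamine, so that every glutamine library lay below every vehicle library. Pax2 was far lower, with 2.07, 5.02 and 1.94 CPM with vehicle and 2.52, 2.61 and 3.07 CPM with glutamine, and the groups overlapped.

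The leukocyte genes were low in TECs, apart from Csf1r. In the same library order as above, Ptprc had 15, 17 and 1 counts with vehicle against 19, 9 and 25 with glutamine, or 1.48, 1.52 and 0.102 CPM against 2.28, 1.81 and 2.74 CPM. The glutamine libraries all lay above the vehicle libraries, and vehicle replicate 5 held a single count. Lyz2 had 26, 18 and 11 counts with vehicle and 37, 62 and 36 counts with glutamine, or 2.56, 1.61 and 1.12 CPM against 4.44, 12.5 and 3.95 CPM, also without overlap. Ly6g had 8, 1 and 1 counts with vehicle and 3, 9 and 2 counts with glutamine, which overlapped and lay at or near the limit set by depth in 4 of 6 libraries. Csf1r had 236, 189 and 251 counts with vehicle and 135, 145 and 155 counts with glutamine, or 23.3, 16.9 and 25.6 CPM against 16.2, 29.1 and 17 CPM. In these bulk samples, fewer cells of a type and less RNA per cell cannot be told apart.

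**Figure D1:**
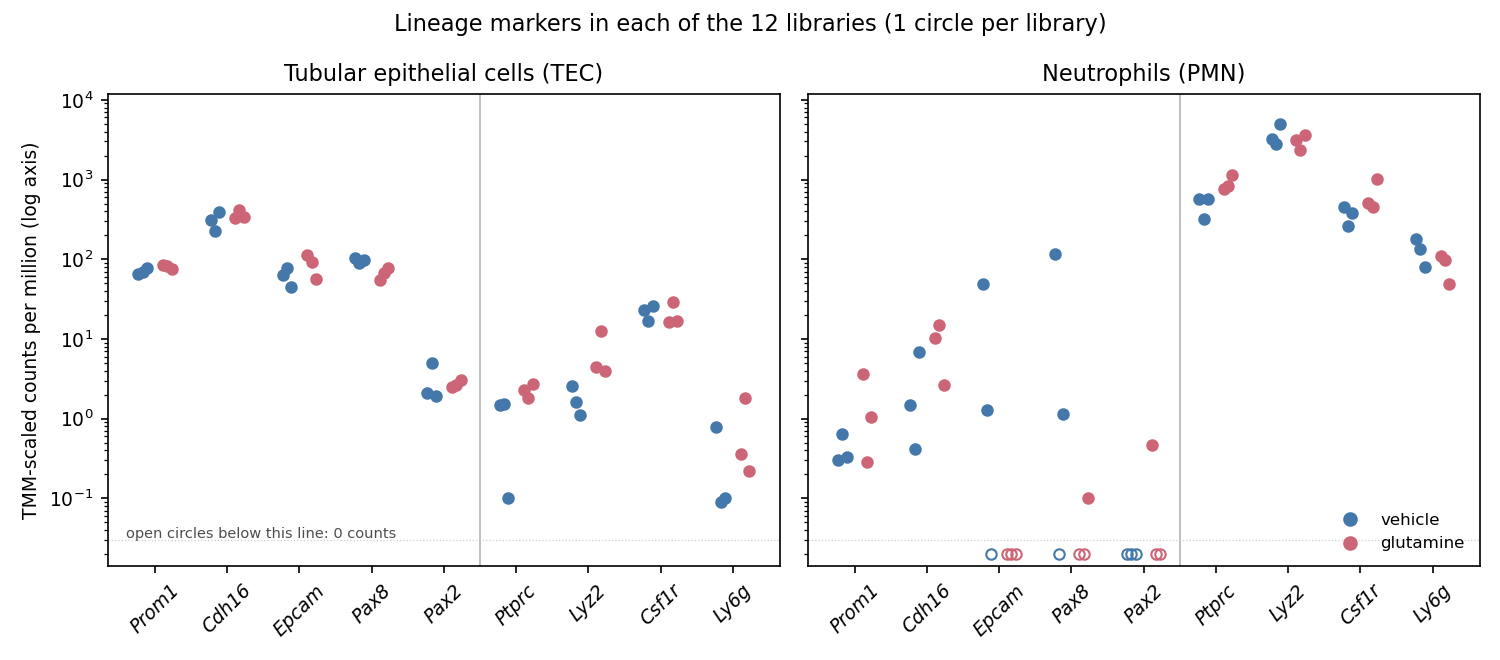
CPM (log axis) of the 9 marker genes in each TEC library (left) and PMN library (right), 1 circle per library, vehicle in blue and glutamine in red, with open circles for 0 counts; the vertical line parts tubular from leukocyte genes. Tubular genes other than Pax2 are high in TECs and leukocyte genes in PMN, Csf1r lies between 16.2 and 29.1 CPM in TECs, and PMN vehicle replicate 1 carries Epcam and Pax8 at TEC-like levels.

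In PMN the leukocyte genes were abundant in every library. Lyz2 had 3249, 2784 and 5017 CPM in vehicle replicates 1, 2 and 3 and 3154, 2338 and 3577 CPM in glutamine replicates 1, 2 and 3. Csf1r had 458, 263 and 385 CPM with vehicle and 504, 456 and 1001 CPM with glutamine. Both genes overlapped between the groups, although glutamine replicate 3 held more Csf1r than any other library. Ptprc had 564, 317 and 568 CPM with vehicle and 754, 819 and 1151 CPM with glutamine, so that all glutamine libraries lay above all vehicle libraries. Ly6g had 178, 133 and 79.9 CPM with vehicle and 110, 98.4 and 49.2 CPM with glutamine, with overlap.

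The tubular genes in PMN were near 0 in most libraries but not in all. Pax8 had 2310 counts (116 CPM) in vehicle replicate 1, 0 in vehicle replicate 2 and 24 (1.14 CPM) in vehicle replicate 3, and 0, 0 and 2 counts in the glutamine libraries. Epcam had 968 counts (48.5 CPM) in vehicle replicate 1, 28 (1.28 CPM) in vehicle replicate 2 and 0 in the other 4 libraries. Vehicle replicate 1 was thus the library that held both genes at or above the level of a TEC library. In that library the thick ascending limb list, 7 genes with Umod (uromodulin) as the strongest, summed to 1076 CPM, against at most 43.6 CPM in the other 5 PMN libraries. Cdh16 had 1.5, 0.410 and 6.85 CPM with vehicle and 10.4, 15.1 and 2.66 CPM with glutamine, and its highest value was in glutamine replicate 2, where Epcam and Pax8 had 0 counts. Prom1 had 0.301, 0.638 and 0.333 CPM with vehicle and 3.68, 0.283 and 1.05 CPM with glutamine, and Pax2 had 9 counts in glutamine replicate 1 and 0 in the others. The 5 tubular genes therefore did not rise and fall together across the PMN libraries.

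Across cell types, levels were set side by side without a test, since tables, tissues and sequencing runs go with the cell type and each table was scaled on its own. All PMN libraries exceeded all TEC libraries for the 4 leukocyte genes, and all TEC libraries exceeded all PMN libraries for Prom1, Cdh16 and Pax2. Epcam and Pax8 overlapped through PMN vehicle replicate 1 alone, and without it all 9 genes were separate. As a share of the PMN median, the TEC libraries held 0.0154% to 0.415% for Ptprc, 0.0350% to 0.389% for Lyz2 and 0.0860% to 1.74% for Ly6g. For Csf1r the share was 3.55% to 6.38%, above the highest share of each of the other leukocyte genes. In the other direction, the PMN libraries held 0.373% to 4.86% of the TEC median of Prom1, 0.124% to 4.54% of that of Cdh16, 0% to 18.5% of that of Pax2, 0% to 68.8% of that of Epcam and 0% to 140% of that of Pax8.

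Set against each other within a library, Csf1r and Ptprc stood in different proportions in the cell types. In PMN there were 0.557 to 0.870 Csf1r counts per Ptprc count in all 6 libraries. In TECs there were 6.2 to 16.1 in 5 libraries, and 251 against 1 count in vehicle replicate 5. With 1 to 25 Ptprc counts in these TEC libraries, it could not be told whether the level of Csf1r followed that of Ptprc. The vehicle library with the least Ptprc had the most Csf1r counts of the 6, although by CPM glutamine replicate 2 had more. The 2 genes of the complement component and macrophage group that were looked up after their values were seen, C1qa and Adgre1 (F4/80), had 1.88 to 10.5 CPM and 0 to 0.592 CPM in TECs, against 287 to 2572 CPM and 15.0 to 141 CPM in PMN. C1qb, the second complement gene, was likewise low in TECs, at 1.43 to 7.43 CPM. Of the monocyte and macrophage list, Cx3cr1 (the fractalkine receptor) had 11.5 to 28.3 CPM and Cd14 had 43.0 to 113 CPM in TECs. Cd14 too lay far below its PMN level, which was 9546 to 14330 CPM.

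**Figure D2:**
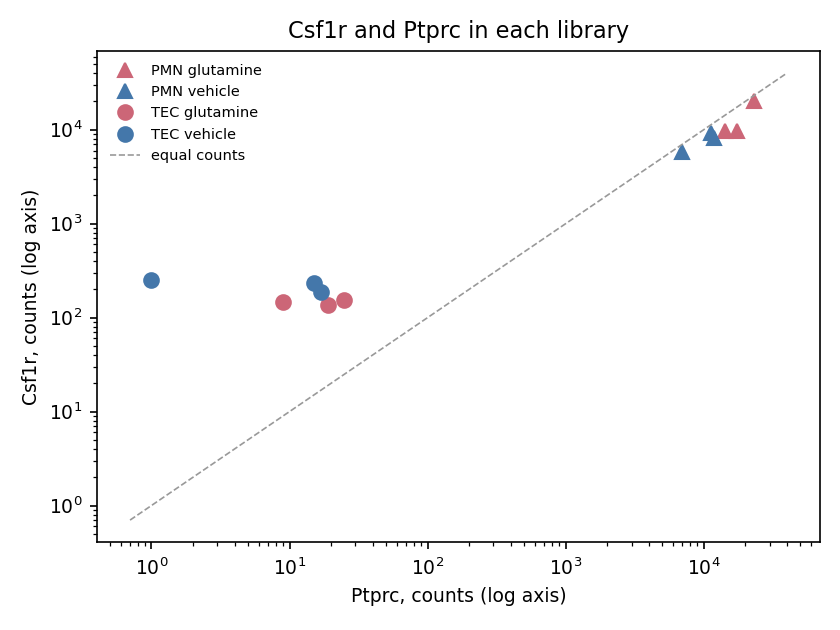
Counts of Csf1r against counts of Ptprc (both log axes), 1 point per library, circles for TECs and triangles for PMN, with a dashed line at equal counts. PMN libraries lie just under the line with 0.557 to 0.870 Csf1r counts per Ptprc count, and all 6 TEC libraries lie above it.

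Reads of 50 bases can fit several genes, and this touched 2 of the leukocyte genes most. Of the windows of 50 bases in the GENCODE M21 transcripts of Lyz2, 15.4% occurred also in another gene, in each case Lyz1. Lyz1 was nevertheless at 0.0476 to 0.137 CPM in PMN, where Lyz2 had 2338 to 5017 CPM, and at 0 to 0.402 CPM in TECs. Of the Csf1r windows 14.3% were shared, all with the overlapping gene Hmgxb3, which had 1.87 to 7.24 CPM in TECs, below Csf1r. In PMN Hmgxb3 had 53.5, 0.0456 and 4.09 CPM with vehicle and 0, 83.8 and 48.6 CPM with glutamine, also below Csf1r in every library but uneven between them. Shares were 5.10% for Prom1, mostly with the antisense gene Gm16401 at 0 to 1.12 CPM in TECs, and 4.43% for Pax8, with Gm13415 at 1.25 to 13.8 CPM in TECs. They were below 1% for Ly6g, Cdh16 and Ptprc and 0% for Epcam and Pax2. Whether counting used the strand of reads is not given in the sources used here, so the overlapping and antisense shares of Csf1r and Prom1 are uncertain.

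Levels of different genes were compared per kilobase of the longest coding transcript. In TECs the median order was Cdh16 at 114, Epcam at 34.6, Pax8 at 32.4, Prom1 at 18.5, Csf1r at 4.28, Lyz2 at 2.47, Pax2 at 0.589, Ptprc at 0.328 and Ly6g at 0.308 CPM per kilobase. Over the libraries the whole range of Cdh16 lay above that of Epcam, Pax8 above Prom1 and Prom1 above Csf1r. The ranges of the other neighbours in this order overlapped (Epcam and Pax8, Csf1r and Lyz2, Lyz2 and Pax2, Pax2 and Ptprc, Ptprc and Ly6g). Overlapping ranges do not show the order within a single library. In PMN the order was Lyz2 at 2433, Ptprc at 130, Ly6g at 111, Csf1r at 97.2, Cdh16 at 1.63, Prom1 at 0.119 and Pax8 at 0.0196 CPM per kilobase, with Epcam and Pax2 at a median of 0. Lyz2 was above, and Cdh16 below, the group of Ptprc, Ly6g and Csf1r in every library, and the members of that group overlapped, as did neighbouring genes among the low tubular ones. Pax2, a nephron gene, had at most 1.15 CPM per kilobase in TECs and so lay below the macrophage gene Csf1r, which had at least 3.45.

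To test whether glutamine changed these genes, each table was fitted across all genes and the 9 were read from that fit, by edgeR's quasi-likelihood test with p-values adjusted after Benjamini and Hochberg. In TECs 8 of the 9 passed the expression filter, Ly6g being too low, and 0 of the 8 had an adjusted p below 0.05. Over all 14734 genes tested by edgeR the share called was 0%, with a smallest adjusted p of 0.101. At an unadjusted p below 0.05 there were 2 of the 8, Lyz2 higher and Pax8 lower with glutamine, against 12.7% (1878) of all genes, 7.23% higher and 5.51% lower. DESeq2, which gave no adjusted p for Ptprc, called 0 of the other 7 against 2.37% of all genes with an adjusted p. The groups did not overlap for 3 of the 8, Ptprc and Lyz2 higher and Pax8 lower, against 18.8% of all genes, 9.01% higher and 9.81% lower.

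Among the tubular genes in TECs, Pax8 averaged 97.1 ± 7.71 CPM without and 66.7 ± 10.7 CPM after glutamine (SD, n = 3). Its log2 difference, glutamine minus vehicle, was -0.54 with a standard error of 0.21 and an adjusted p of 0.323 in edgeR's test over all genes, and this p ranged from 0.199 to 0.588 over the alternatives. Prom1 averaged 70.4 ± 5.96 and 80.2 ± 4.56 CPM, a log2 difference of 0.19 that did not exceed its standard error of 0.19. The log2 differences were 0.22 for Cdh16, 0.50 for Epcam and -0.14 for Pax2, with standard errors of 0.23, 0.29 and 0.61 and adjusted p-values in the same edgeR test of 0.722, 0.496 and 0.945. Without vehicle replicate 4, glutamine replicate 2 or vehicle replicate 5 the difference of Cdh16 was 0.029, 0.096 or 0.42, and without glutamine replicate 1 or vehicle replicate 5 that of Epcam was 0.27 or 0.30. Prom1 had 0.12 without vehicle replicate 3. With library totals in place of TMM factors the log2 differences were 0.023 for Prom1, 0.058 for Cdh16, 0.32 for Epcam and -0.32 for Pax2. The direction of Pax2 rested on vehicle replicate 4, without which its log2 difference was 0.45.

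Among the leukocyte genes in TECs, Lyz2 averaged 1.77 ± 0.734 CPM without and 6.95 ± 4.77 CPM after glutamine (SD, n = 3). Its log2 difference was 1.95 with a standard error of 0.62 and an adjusted p of 0.252 in edgeR's test over all genes. Without glutamine replicate 2, the shallowest library, the difference was 1.24, and the adjusted p ranged from 0.0702 with DESeq2 to 0.647 over the alternatives. Ptprc averaged 1.03 ± 0.808 and 2.28 ± 0.467 CPM, a log2 difference of 1.13 with a standard error of 0.89 and an adjusted p of 0.620 by edgeR, and of 0.60 without vehicle replicate 5. Csf1r averaged 21.9 ± 4.48 and 20.8 ± 7.24 CPM, a log2 difference of -0.09 with a standard error of 0.31. None of these 3 genes passed the threshold, and Csf1r turned its sign when glutamine replicate 1 or 3 or vehicle replicate 5 was left out, at 0.06, 0.04 and 0.03. With library totals it was -0.25 for Csf1r.

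**Figure D3:**
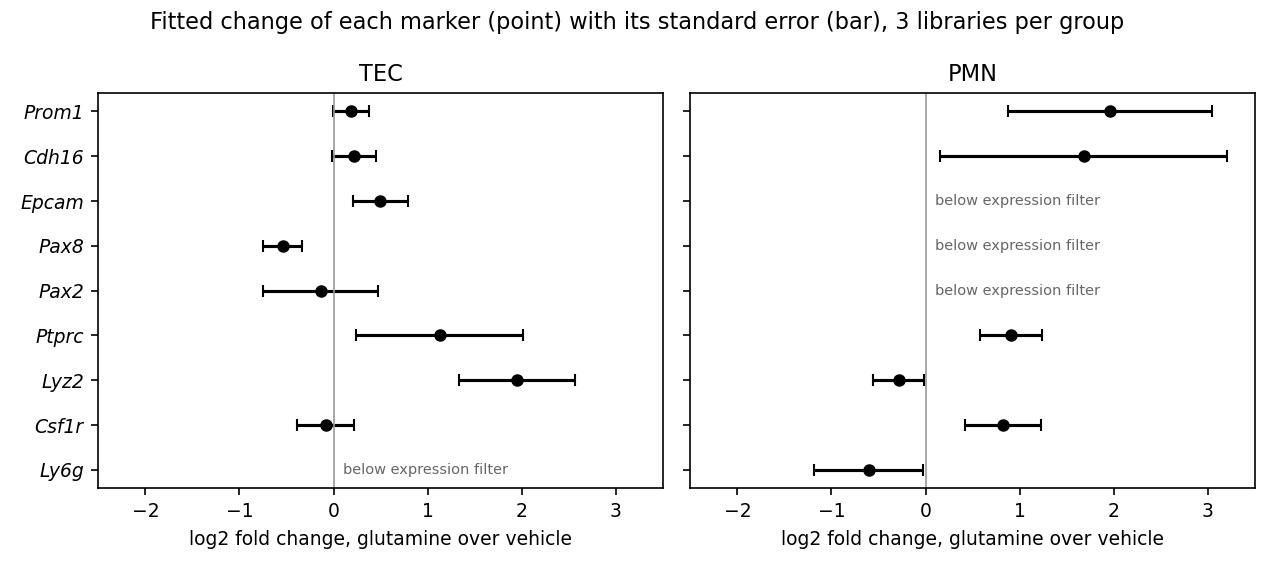
Log2 fold change of glutamine over vehicle (point) with its standard error (bar) for each marker gene in TECs (left) and PMN (right), 3 libraries per group, from the fit across all genes. Genes below the expression filter carry no point, and the widest bars belong to Cdh16 and Prom1 in PMN, where both are near the limit of detection in some libraries.

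In PMN 6 of the 9 passed the filter, and 0 of the 6 had an adjusted p below 0.05 by edgeR, as for 0% of the 10130 genes tested. The test also recovered none of the changes put into simulated PMN counts, so that a lack of calls by edgeR in PMN says little. DESeq2 called 0 of the 6 against 2.5% of all genes with an adjusted p. At an unadjusted p below 0.05 there was 1, Ptprc, higher with glutamine, against 3.42% of all genes and 2.04% higher. Ptprc was also the 1 gene of the 6 whose groups did not overlap, against 10.5% of all genes and 5.87% with glutamine higher. It averaged 483 ± 144 CPM without and 908 ± 213 CPM after glutamine (SD, n = 3), a log2 difference of 0.91 with a standard error of 0.33 and an adjusted p of 0.9999 by edgeR and 0.181 by DESeq2, the lowest of its alternatives. Without vehicle replicate 1 the difference was 1.0, and without vehicle replicate 2 it was 0.67. Csf1r had a log2 difference of 0.83 (standard error 0.40), Lyz2 of -0.29 (standard error 0.27) and Ly6g of -0.60 (standard error 0.58), and the groups overlapped for each. Without vehicle replicate 1 or vehicle replicate 2 these differences were 0.97 or 0.63 for Csf1r, -0.40 or -0.46 for Lyz2, and -0.32 or -0.60 for Ly6g. Single libraries also set the size of these 3 differences, with 0.37 for Csf1r and -0.33 for Ly6g without glutamine replicate 3, and -0.0052 and -0.18 for Lyz2 without vehicle replicate 3 and glutamine replicate 2. Prom1 and Cdh16 had log2 differences of 1.96 and 1.68 with standard errors of 1.08 and 1.53, and both rested on low counts. For Prom1 the difference was 1.74 or 2.37 without vehicle replicate 1 or 2, and 0.63 without glutamine replicate 1. For Cdh16 it was 1.35 or 1.15 without vehicle replicate 1 or 2, 1.12 without glutamine replicate 2 and 3.28 without vehicle replicate 3. Epcam, Pax8 and Pax2 did not pass the filter, and their counts are given above. Without the filter all 9 genes were tested in PMN by edgeR, and 0 had an adjusted p below 0.05. At an unadjusted p below 0.05 there were 3 of the 9, against 868 of 19741 genes. Of the 6 genes that passed the filter, Ptprc alone was among these 3. The others came from Epcam, Pax8 and Pax2, whose counts lay wholly or mostly in 1 library each. That library was vehicle replicate 1 for Epcam (968 counts) and Pax8 (2310 counts), and glutamine replicate 1 for Pax2 (9 counts). The 3 of 9 therefore say little about a change of the markers with glutamine.

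The wider marker lists placed the 9 genes among their lineages. In TECs the proximal tubule list of 15 genes summed to 10810 to 18950 CPM, led by Kap and by the phosphate transporter Slc34a1, and the thick ascending limb list to 1175 to 2583 CPM, led by Umod. The nephron epithelium list of 12 genes, with the keratin gene Krt8 and the cadherin gene Cdh1 on top, summed to 778 to 1171 CPM, the scattered tubular cell list to 574 to 1518 CPM with Havcr1 (KIM-1) at 26.2 to 793 CPM and Cd24a at 137 to 368 CPM, the distal convoluted and connecting tubule list to 228 to 429 CPM, and the collecting duct list to 129 to 377 CPM. Genes of all these tubule lists were thus detected in the sorted cells. Genes of lists for other kidney cells were also detected, with 392 to 649 CPM over the endothelial list, led by Flt1 and Cdh5, 57.6 to 72.1 CPM over the podocyte list, led by Synpo and Clic5, and 27.9 to 52.8 CPM over the stromal list. Over all 19 lists, 0 of the 129 genes tested in TECs and 0 of the 91 tested in PMN had an adjusted p below 0.05 by edgeR, with 17 and 8 at an unadjusted p below 0.05, against 12.7% and 3.42% of all genes. DESeq2 called 3 of the 121 with an adjusted p in TECs and 4 of 83 in PMN, against 2.37% and 2.5% of all genes. In TECs both counts lay near the share of all genes. The 3 in TECs, named here after their values were seen, were Havcr1, which averaged 480 CPM with vehicle and 56.6 CPM with glutamine, and the thick ascending limb genes Slc12a1 (40.4 and 99.98 CPM) and Ppp1r1a (14.7 and 40.9 CPM). The 4 in PMN were Cd79b, Cdh5, Ly6a and Mmp9. DESeq2 was refitted without vehicle replicate 1 and, separately, without vehicle replicate 2, a choice made after the data were seen. It called Cd79b again in both refits, with an adjusted p of 3.42e-08 without vehicle replicate 1 and 3.7e-08 without vehicle replicate 2. Cdh5 was called without vehicle replicate 1 (adjusted p = 0.00965 by DESeq2) but not without vehicle replicate 2 (0.134), its log2 difference moving from -8.43 to -8.89 and -5.31. Mmp9 was called by DESeq2 in neither (adjusted p 0.659 and 0.699), although its log2 difference was 0.98 with all libraries and 1.02 and 0.98 in the refits. Ly6a was not called by DESeq2 in either (adjusted p 0.305 and 0.0826), with log2 differences of -4.38 with all libraries and -3.13 and -4.61 in the refits. Without vehicle replicate 1 DESeq2 also called 2 other list genes, Ltf and Nphs1. Neither had an adjusted p from DESeq2 with all libraries, so they could not have been called there.

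Leukocyte and blood lists were also read in TECs. The pan-leukocyte list of 14 genes, without Ptprc, summed to 118, 64.8 and 64.6 CPM in vehicle replicates 3, 4 and 5 and 119, 141 and 91.9 CPM in glutamine replicates 1, 2 and 3, with Ptprcap and Tyrobp on top. Its groups overlapped, 10 of 11 tested genes had a log2 difference above 0, against 50.6% of all genes, with a median of 0.74 against 0.01 over all genes, and 1 reached an unadjusted p below 0.05, against 12.7% of all genes. Some tubule lists leaned the same way, with 7 of 7 genes above 0 in the thick ascending limb list and in the distal convoluted and connecting tubule list, 3 of them in each at an unadjusted p below 0.05, and 12 of 15 in the proximal tubule list, 4 of them below it. Others did not, with 5 genes above and 6 below 0 in the nephron epithelium list, 5 and 3 in the collecting duct list and 4 and 3 in the scattered tubular cell list. The endothelial list leaned the other way, with 2 genes above and 9 below 0 and a median of -0.27. The monocyte and macrophage list had 6 and 2, the neutrophil list 7 and 2 and the erythroid list 5 and 0. The monocyte and macrophage list summed to 69.4 to 161 CPM, led by Cd14 and Cx3cr1, and the dendritic cell and class II list to 34.3 to 124 CPM, with 6 of 6 tested genes above 0 and 2 of them at an unadjusted p below 0.05, against the same 12.7% of all genes. The neutrophil list summed to 105 to 279 CPM, led by the chemokine receptor gene Cxcr2 at 37.8 to 88.0 CPM, and the 2 libraries with its highest sums, vehicle replicate 3 and glutamine replicate 2, were those with the most Ly6g. Glutamine replicate 2 was also the library with the most Lyz2, and the part of leukocyte content in the Lyz2 and Ptprc values was not tested. The B cell list summed to 12.8 to 29.3 CPM, the T and NK cell list to 1.97 to 10.7 CPM, the platelet list to 6.72 to 31.1 CPM and the eosinophil, basophil and mast cell list to at most 0.803 CPM. The erythroid list ran from 824 to 6739 CPM with its highest values in vehicle replicate 5 and glutamine replicate 2, and was the largest of the blood lists in the sorted TECs.

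**Figure D4:**
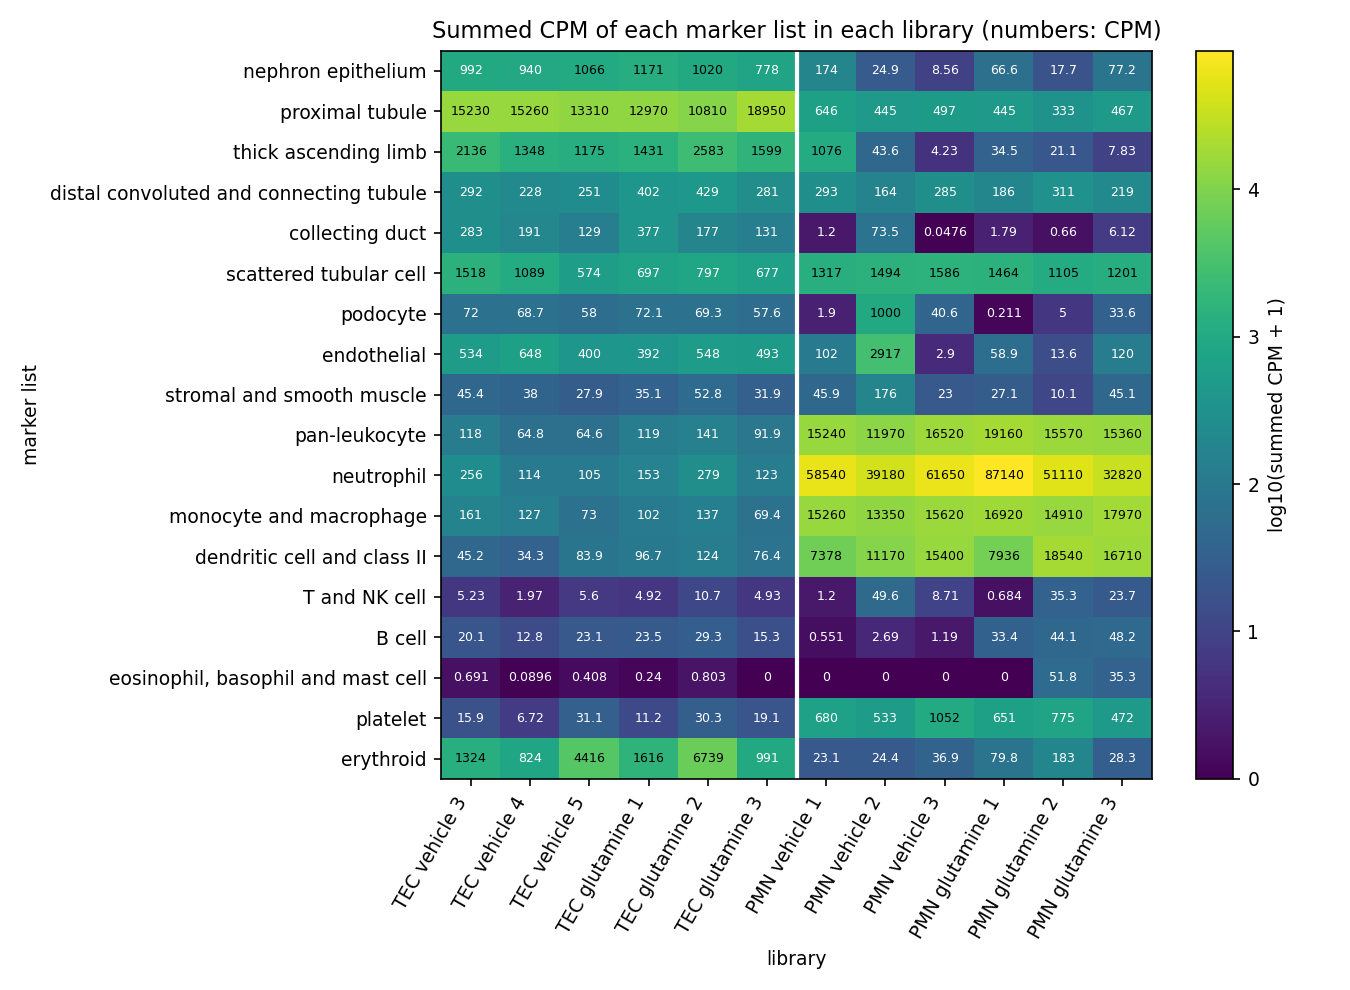
Summed CPM of 18 marker lists (rows) in the 12 libraries (columns), colored by log10(sum + 1) with the sum printed in each cell. TEC columns are bright for the proximal tubule, thick ascending limb and nephron epithelium lists, and also for the erythroid list, at 824 to 6739 CPM. PMN columns are bright for the neutrophil, pan-leukocyte, monocyte and macrophage, and dendritic cell lists. The scattered tubular cell list is bright in both, and the lymphocyte and eosinophil lists are low in both. PMN vehicle replicates 1 and 2 stand out by 1076 CPM of thick ascending limb genes and by 2917 CPM of endothelial and 1000 CPM of podocyte genes.

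In PMN the neutrophil list summed to 32820 to 87140 CPM, with the calprotectin genes S100a8 at 6608 to 28920 CPM and S100a9 at 6808 to 23750 CPM, and Ly6g was found in all 6 libraries. Genes of other myeloid cells were abundant as well. The monocyte and macrophage list summed to 13350 to 17970 CPM, led by Cd14 and the complement gene C1qb at 585 to 3395 CPM, and the dendritic cell and class II list to 7378 to 18540 CPM, with Cd74 at 4155 to 10740 CPM. The pan-leukocyte list ran from 11970 to 19160 CPM and the platelet list, mostly Pf4, from 472 to 1052 CPM. Lyz2 and Csf1r in these libraries cannot be assigned to neutrophils or to other myeloid cells in bulk RNA. The name blood neutrophils (PMN) is that of the sources. Beside Ly6g at 49.2 to 178 CPM these libraries held the macrophage and class II genes above and the kidney genes below. The share of neutrophils in them was not tested.

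Kidney genes were present in the PMN libraries beyond the 9 markers. Kap, a proximal tubule gene, had 187 to 402 CPM in all 6, against 3903 to 11190 CPM in TECs, and the proximal tubule list summed to 333 to 646 CPM. Vehicle replicate 1 held Umod at 1025 CPM and the highest nephron epithelium sum, 174 CPM against 8.56 to 77.2 CPM elsewhere. Vehicle replicate 2 held the endothelial list at 2917 CPM, next 120 CPM, and the podocyte list at 1000 CPM, next 40.6 CPM, as well as the highest stromal (176 CPM) and collecting duct (73.5 CPM) sums. These 2 libraries therefore carried different kidney genes, and Epcam and Pax8 went with the first of them. The scattered tubular cell list, which holds Vim and Cd24a that leukocytes also express, summed to 1105 to 1586 CPM, and the distal convoluted and connecting tubule list to 164 to 311 CPM. In that list the widely expressed Wnk1 had 63.4 to 303 CPM, and Slc12a3, the sodium chloride cotransporter of the distal convoluted tubule, had 0 to 193 CPM, highest in a vehicle library. The B cell list summed to 0.551 to 2.69 CPM with vehicle and 33.4 to 48.2 CPM with glutamine, without overlap. Single genes showed this in 10.5% of cases and with glutamine higher in 5.87%, which is no measure for a sum. Of the list's 10 genes 2 were tested, and 5 were at 0 in all libraries. Cd79b, its strongest gene, averaged 0 and 24.6 CPM (adjusted p = 0.713 in edgeR's quasi-likelihood test). The erythroid list ran from 23.2 to 183 CPM, the T and NK cell list from 0.684 to 49.6 CPM, and the eosinophil, basophil and mast cell list from 0 with vehicle to 51.8 CPM with glutamine, overlapping at 0.

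Close relatives of the marker genes were read from the same tables. Prom2, the other prominin gene, had 0.408 to 4.24 CPM in TECs and at most 0.0502 CPM in PMN. Pax5, the B cell member of the Pax family, had at most 0.493 CPM in TECs and 0 in PMN. Among the Ly6 genes, Ly6c1 ran from 133 to 512 CPM in TECs and from 0 to 563 CPM in PMN, Ly6c2 from 51.8 to 348 CPM in PMN, and Ly6i stayed at 0 to 2.61 CPM in TECs and 0.0501 to 8.21 CPM in PMN. The 9 relatives summed to 1494 to 1647 CPM with vehicle and 760 to 1196 CPM with glutamine in PMN, without overlap, and overlapped in TECs. Of the 10130 single genes tested in PMN 10.5% did not overlap, and 469 did not with glutamine lower. These shares of single genes are no measure for a sum. Different genes made up the vehicle sums, with Ly6a highest in vehicle replicate 1 and Ly6c1 at 563 CPM in vehicle replicate 2 and 0 in vehicle replicate 3. Ly6a (Sca-1) had 745, 230 and 64.0 CPM in PMN with vehicle and 1.79, 18.6 and 32.4 CPM with glutamine, with an adjusted p of 0.949 by edgeR, and its values by DESeq2 are given above. Without vehicle replicate 1 its other vehicle values still lay above every glutamine value. Vehicle replicate 1, which held Epcam and Pax8, was also the PMN library with the most Ly6a.

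Patterns most like the 2 sort genes were looked for over the 6 libraries of a cell type, by Pearson's r of log2(CPM + 1). In TECs 2310039L15Rik (0.996), Chpf (0.996) and Zcwpw1 (0.992) were nearest to Prom1 among 14733 genes, and 5330406M23Rik (0.974), Gas7 (0.971) and Gosr1 (0.969) were nearest to Ptprc. In PMN Gpi1 (0.996), Evi2a (0.990) and Lrrc75b (0.986) were nearest to Prom1 among 10129 genes, and Med29 (0.977), Mir5107 (0.976) and Gm27252 (0.970) to Ptprc. An r above 0.9 was reached by 377 genes for Prom1 and 74 for Ptprc in TECs, and by 51 and 69 in PMN. Ptprc in TECs and Prom1 in PMN rested on low counts. With 6 libraries that share their scaling, these are descriptions of the libraries.

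By position in GENCODE M21 on GRCm38, Prom1 lies on chromosome 5 from 43993620 to 44102032, Ptprc on chromosome 1 from 138062861 to 138175708, Epcam on chromosome 17 from 87635979 to 87651129, Cdh16 on chromosome 8 from 104601911 to 104624396 and Pax8 on chromosome 2 from 24420560 to 24475599. Pax2 lies on chromosome 19 from 44756045 to 44837871, Lyz2 on chromosome 10 from 117277331 to 117282321, Csf1r on chromosome 18 from 61100598 to 61132149 and Ly6g on chromosome 15 from 75155240 to 75159126. Each of the 9 genes lies on a chromosome of its own.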

How the data were processed

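RNA of FACS-sorted renal TECs and of blood neutrophils (PMN) was sequenced, per the labels in single reads of 50 bases, 3 libraries per group. Per the submitters' processing notes, reads were trimmed (Trim Galore 0.6.4) and quantified with Salmon 1.0.0, with mm10 as the build, and what the authors deposited are expected (estimated) counts for each symbol, without normalization. Counts carry no molecular identifiers, so limits from depth cover counting error only.

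The other deposited table, of PMN, had been altered by a spreadsheet program, so its values were decoded before use as estimated counts: 3.2% of cells carried extra points, of which the last was read as the decimal point, and 0.391% had become dates. Of 108 cells of the 9 genes 29 had extra points and 1 a date. The table was planned as plain counts. Each PMN library had 2 columns, whose difference is not given in the sources used here. They correlated at 0.9953 to 0.9957 against 0.7707 to 0.8239 between libraries, and their mean was used as 1 replicate. Their counts were nearly the same, with 17366 and 17364 for Ptprc in glutamine replicate 2, so they are no separate measurements. PMN replicates were numbered in the order of the records, since their labels carry no number.

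Counts were rounded, scaled by TMM and tested for glutamine against vehicle, separately for each table, with edgeR 4.0.16 (quasi-likelihood, default expression filter, R 4.3.3) and Benjamini-Hochberg adjusted p below 0.05. Standard errors came from the log2 fold change and the F statistic. Alternatives were DESeq2 1.42.0, limma-voom (limma 3.58.1), other size factors, no filter or at least 10 counts in every library, each PMN column alone, and each library left out. The test was checked on simulated counts, where it recovered most strong changes in TECs and none in PMN. Coordinates, transcripts and lengths came from GENCODE M21, promoters from RefSeq GRCm38.p6.

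The 9 genes and the 19 marker lists were chosen with earlier results of these data known. Named besides the 9 genes were the 2 strongest genes of each list, relatives of the 9 and the 3 genes most like Prom1 and Ptprc. C1qa and Adgre1 were named after their values were seen. A few genes that the naming covers are not reported here. Proteomic data and reads were not used here.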

Additional observations from a re-analysis of the deposited data

How the results depend on the processing

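No paired analysis was possible because replicate 3 is the one number that both TEC groups have, and PMN labels have none. None of the 9 genes was called under any alternative in either cell type. Over all genes, DESeq2 called 308 in TECs and 237 in PMN where edgeR called 0, and edgeR without an expression filter called 425 in TECs. Leaving out 1 library gave 0 to 36 genes in TECs, with 36 without glutamine replicate 2 and 4 without vehicle replicate 5, and 0 to 0 in PMN. Log2 fold changes under the alternatives were read for the 6 genes that passed the filter in PMN and the 8 in TECs. In PMN they included fits of each column alone, which could hardly differ from the main fit. Of these values, 88 in PMN and 99 in TECs kept their direction and their side of the threshold, and 4 in TECs turned. These were Csf1r, with -0.40 to 0.065 when 1 library was left out (0.065, 0.038 and 0.034 without glutamine replicate 1, glutamine replicate 3 and vehicle replicate 5), and Pax2, with -0.37 to 0.45. Scaling by library totals moved the median log2 fold change of all TEC genes from 0.01 to -0.16. Without PMN vehicle replicate 1, an alternative chosen after seeing the data, TECs and PMN were separate for 9 instead of 7 genes. Of the 4 list genes called by DESeq2 in PMN, 2 were called without vehicle replicate 1 and 1 without vehicle replicate 2. Without vehicle replicate 1 it also called 2 others, which had no adjusted p with all libraries. Of the list sums, 5 in PMN and 1 in TECs moved beyond the spread between replicates. In PMN without vehicle replicate 2 the log2 ratio of glutamine to vehicle became 0.29 for the endothelial, 2.03 for the collecting duct and -0.71 for the podocyte list, and without vehicle replicate 1 it became 1.68 for the nephron epithelium and -0.18 for the thick ascending limb list. In TECs the podocyte ratio became -0.17 with library totals. Ratios that stayed within the spread could still change sign. The erythroid ratio in TECs went from 0.51 to -0.75 without glutamine replicate 2. Depth limits Ptprc, Lyz2, Pax2 and Ly6g in TECs and the tubular genes in PMN, and the cause of each change was not tested.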
